A study of Mus musculus with 4 samples.

Results

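The cells described here are 731 single cells of mouse inner ear organoids that were selected on measured transcript counts as supporting cells, out of 15416 cells that passed the cell filter and 18207 deposited barcodes. A cell was kept at 1000 or more detected genes and at most 15% mitochondrial UMIs, where a UMI is 1 counted RNA molecule. It entered the gate with at least 3 UMIs of Agr3 and at least 2 of Slitrk6 or of Otog. Cells with Otof at 100 or more CPM (UMIs scaled to the usual fixed total per cell or group of cells) were left out, as were cells with 3 or more UMIs of both Cnmd and Oc90. These 6 genes therefore chose the members, and their values in the gate are a description. The study made droplet libraries (10x Genomics) of organoids grown from the mouse embryonic stem cell line Atoh1-nGFP-ESC, in which a nuclear GFP reports the hair cell gene Atoh1. Of its 4 libraries 1 is from day 16 and 1 from day 20, and the other 2 are from day 21, sorted into cells of high and of low GFP signal (GFP high and GFP low). Its question was which cell types such organoids can form. The labels say that dissociated cells were sorted on GFP but name a GFP class for day 21 alone. How many organoids went into a library is not stated, and the description field speaks of nuclei where the protocol speaks of cells.

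Supporting cells surround each hair cell of the cochlea and of the balance organs and are the other cell type of a sensory epithelium. They secrete the gelatinous membranes that lie over the hair bundles, pass potassium and small molecules to each other through connexin channels, and clear glutamate. Hair cells send Notch ligands to them, and Notch signalling through the DNA-binding protein RBPJ holds the supporting cell state by way of Hes and Hey repressors, which keep Atoh1 low.

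The kept cells held a median of 8966 to 29146 UMIs by library, and the gated cells a median of 29531.5 UMIs at day 16 and 12555 UMIs at day 20, with 23255 UMIs in the GFP high library and 19548 UMIs in the GFP low library. Summed over the gated cells this gave 641395, 170046, 6039798 and 11671803 UMIs for the 4 libraries in the same order. Pairs of libraries shared 1 to 8 cell barcodes, and none of these was a gated cell in both libraries. With 1 library per group there is no replicate check and no test, so every interval below is a 95% interval that covers counting error only.

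The gate held 20 of 3496 cells at day 16, which is 0.572% (exact Clopper-Pearson interval 0.350 to 0.882%). At day 20 it held 12 of 4553 cells, or 0.264% (0.136 to 0.460%). It held 209 of 3544 cells in GFP high, or 5.90% (5.14 to 6.72%), and 490 of 3823 cells in GFP low, or 12.8% (11.8 to 13.9%). The sort on GFP sets these shares at day 21, and a lower share of gated cells cannot be told apart from a higher share of other cells in the same library.

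**Figure D1:**
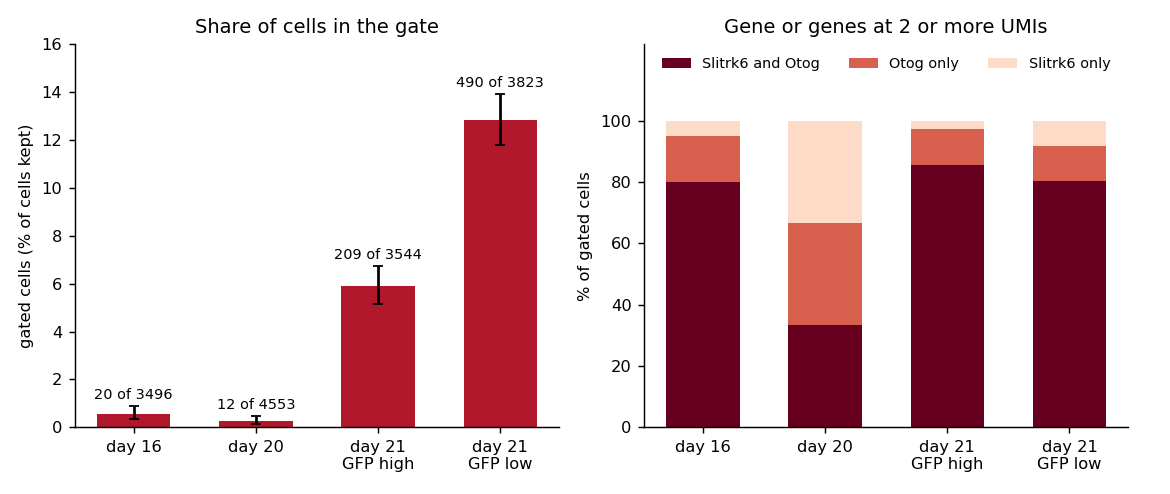
Left, gated cells as a percentage of the cells kept in each library, with exact 95% binomial intervals and the number of cells. Right, percentage of gated cells that reached 2 UMIs of Slitrk6 and Otog, of Otog only or of Slitrk6 only. The gate holds 5.90% of GFP high cells and 12.8% of GFP low cells, against under 1% on days 16 and 20, and in every library but day 20 most gated cells have both genes.

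Agr3, a member of the protein disulfide isomerase family of the endoplasmic reticulum, stood at 288 CPM in the gated cells of day 16 and at 559 CPM in those of day 20, and at day 21 reached 538 CPM in GFP high cells and 540 CPM in GFP low cells. Slitrk6, a membrane protein needed for normal innervation of the inner ear, stood at 189, 294, 406 and 348 CPM in the same order. Otog, which codes for otogelin of the tectorial, otolithic and cupular membranes, stood at 181, 141, 614 and 530 CPM. The gate required Agr3 and one of the other two, so that these values give their levels and do not check the label. On GRCm38 (GENCODE M21) Agr3 lies at chr12:35925620-35949736, Slitrk6 at chr14:110748580-110755149 on the minus strand and Otog at chr7:46240987-46311434, and all of them are annotated as protein-coding.

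Tectb, Gjb6, Tnfaip2 and Sox2 were not part of the rule. They are given markers or list genes, chosen with earlier results of these data known. Their levels describe the gated cells and are no independent check of the label. Gjb6, connexin 30 of the gap junctions between supporting cells, stood at 45.2 CPM (day 16), 106 CPM (day 20), 241 CPM (GFP high) and 142 CPM (GFP low) in the gated cells, against 1.35 to 2.87 CPM in hair cells. Tnfaip2 stood at 176, 212, 406 and 350 CPM in the gated cells, against 4.27, 7.70, 12.8 and 8.13 CPM in hair cells. Sox2, the transcription factor of the sensory patches, stood at 625, 565, 843 and 788 CPM in the gated cells and at 262, 255, 391 and 313 CPM in hair cells. For each of these 3 genes the gated cells were the highest of the kinds of cells compared, in each of the 4 libraries. Tectb, which codes for beta-tectorin of the tectorial membrane, differed from the rest: it had 4 UMIs at day 16 (6.24 CPM) and 0 UMIs at day 20 (interval up to 21.7 CPM), but 348 CPM in GFP high cells and 93.0 CPM in GFP low cells. At day 16 and day 20 Gjb6, Tnfaip2 and Sox2 thus went with the label and Tectb did not.

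**Figure D2:**
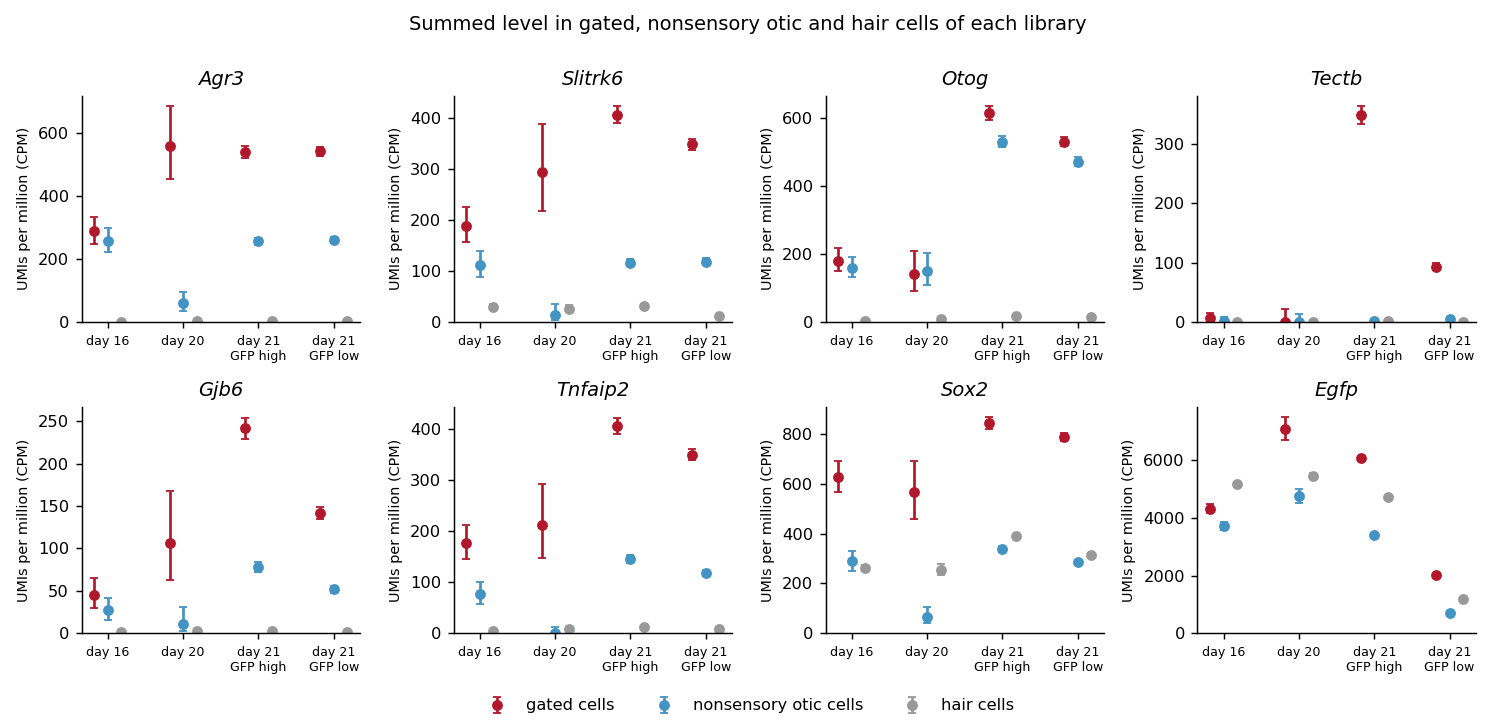
Summed level in CPM (linear axis from 0) of 8 genes in gated cells (red), nonsensory otic cells (blue) and hair cells (grey) of each of the 4 libraries, with exact 95% Poisson intervals. Agr3, Slitrk6 and Otog chose the red cells. Gjb6, Tnfaip2 and Sox2 are highest in the red cells of every library, and Tectb is at or near 0 in the hair and nonsensory cells plotted and in the gated cells of days 16 and 20.

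At equal depth Gjb6 and Tnfaip2 had a UMI in most gated cells and in few hair cells, which did not hold for Tectb or Sox2. Each cell was thinned to 10000 UMIs, and 7 of the gated cells of GFP high and 55 of GFP low were shallower and left out. Gjb6 had a UMI in 79.2% of GFP high gated cells (160 of 202, 73.0 to 84.6%) and 58.4% of GFP low gated cells (254 of 435, 53.6 to 63.1%), or 84.7% and 69.4% before thinning. In hair cells, which lack this connexin, the thinned shares were 1.78% in GFP high and 0.642% in GFP low, from median depths of 30280 and 25288 UMIs. Tnfaip2 had a UMI in 88.1% of GFP high and 86.4% of GFP low gated cells (94.7% in both before thinning), against 6.99% and 3.85% of hair cells. Tectb had a UMI in only 17.8% of GFP high (12.8 to 23.8%) and 10.6% of GFP low gated cells (7.85 to 13.9%), or 20.1% and 11.4% before thinning, against 0.656% and 0.482% of hair cells. Sox2 had a UMI in nearly all gated cells, 97.5% in GFP high and 96.6% in GFP low (100% and 99.2% before thinning), but also in 84.0% and 64.0% of hair cells and in 80.7% and 73.3% of nonsensory cells.

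Cells lay near each limit of the gate. In GFP high, 20 gated cells had exactly 3 UMIs of Agr3 and 15 cells that met every other limit had 2, and in GFP low these numbers were 43 and 58. Gated cells with Otof between 50 and 100 CPM numbered 17 in GFP high and 22 in GFP low, and 17 and 7 cells with Otof between 100 and 200 CPM lay just outside. The band just inside had 330 CPM of Pou4f3 in GFP high and 91.3 CPM in GFP low, and the band just outside 319 and 315 CPM. The limit on Cnmd and Oc90 left out 125 cells of GFP high and 130 of GFP low that met the other limits; these had 1.26 and 9.67 CPM of Tectb and 428 and 400 CPM of Sox2.

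The genes in the promoter display below were chosen for their place in the results. Agr3 defines the gate and Tectb marks a minority of gated cells. Hes5 is a Notch target whose summed level was higher in that minority, with most of its UMIs in few cells. Each window runs from 250 bases before to 50 after the gene's start (RefSeq, GRCm38.p6) and is read 5′ to 3′ on the gene's strand, which is the plus strand for all 3. Capitals mark TGGGAA, the core of the motif bound by RBPJ, or its reverse complement TTCCCA; both strands were searched, and the reverse complement is counted as the same motif. The Agr3 window is chr12:35925371-35925670, the Tectb window chr19:55180476-55180775 and the Hes5 window chr4:154960673-154960972.
Agr3: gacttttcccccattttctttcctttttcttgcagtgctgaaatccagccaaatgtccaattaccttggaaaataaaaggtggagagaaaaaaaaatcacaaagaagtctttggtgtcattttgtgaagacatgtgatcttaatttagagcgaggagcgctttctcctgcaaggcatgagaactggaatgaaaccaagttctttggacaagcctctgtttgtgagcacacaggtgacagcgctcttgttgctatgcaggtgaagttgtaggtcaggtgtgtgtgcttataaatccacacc
Tectb: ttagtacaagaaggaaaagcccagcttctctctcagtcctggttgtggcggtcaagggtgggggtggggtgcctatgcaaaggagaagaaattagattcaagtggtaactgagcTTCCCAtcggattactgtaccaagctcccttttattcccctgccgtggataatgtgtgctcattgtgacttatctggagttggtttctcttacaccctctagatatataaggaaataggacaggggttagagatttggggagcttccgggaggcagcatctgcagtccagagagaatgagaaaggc
Hes5: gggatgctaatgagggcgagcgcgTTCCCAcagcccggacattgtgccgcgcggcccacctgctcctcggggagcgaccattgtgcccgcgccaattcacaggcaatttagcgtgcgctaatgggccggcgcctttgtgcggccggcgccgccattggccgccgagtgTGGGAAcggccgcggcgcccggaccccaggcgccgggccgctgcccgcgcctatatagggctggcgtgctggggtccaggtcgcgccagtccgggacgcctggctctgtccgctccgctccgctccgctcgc
The Hes5 window holds 2 matches, which begin 226 and 82 bases before the start, the Tectb window 1 match at 136 bases before it, and the Agr3 window none. Of all 32851 promoter windows of this length, 25.6% hold at least 1 match, so that a single match is common and is given here as a description of the letters. In the genes searched, 9 of 11 had a window, and Tnfaip2 on chromosome 12 also held 1 match.

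Against hair cells (Otof at 100 CPM or more, Agr3 under 3 UMIs), the gated cells had higher levels of supporting cell, matrix and Notch genes and lower levels of hair cell genes. A gene is counted here when it was at least 2-fold higher, or at most 0.5 of the level, in both day 21 libraries with both counting intervals clear of 1; 13.8% of the 9966 genes assessed were higher by this rule and 15.6% lower. The gate itself separates these cells, so the counts describe the profile only. Of 15 general supporting cell genes 14 were assessed and all 14 were higher in the gated cells, with median log2 ratios of 3.53 in GFP high and 3.11 in GFP low, where the median of all genes was -0.08 and -0.07. Slc1a3, the glutamate transporter of supporting cells and glia, stood at 412 CPM in GFP high gated cells against 22.5 CPM in hair cells, and at 279 against 7.95 CPM in GFP low. Of the Notch genes 12 of 21 were higher, 2 lower (Dll1 and Dlk2) and 7 neither. Gjb2, connexin 26, stood at 191 against 5.81 CPM in GFP high and at 185 against 3.30 CPM in GFP low.

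Of the hair cell markers 24 of 25 were lower than in hair cells, and Atoh1 was the one that was not counted either way. Hair cell genes in the gate stood at a median of 3.09% of their level in hair cells in GFP high (26 genes) and 3.91% in GFP low (23 genes at 10 CPM or more in hair cells), close to the 3.47% and 2.68% seen in nonsensory otic cells. These genes include Otof, which the rule limits. Single genes ranged from 0.348% (Ptprq) to 44.6% (Atoh1) in GFP high and from 0.680% (Otof) to 43.0% (Anxa4) in GFP low. Of 11 hair cell genes assessed against nonsensory cells, Atoh1 and Espn were higher in the gated cells and 0 lower. Over all 9278 genes assessed in that comparison, 2.45% were higher and 3.34% lower. The median log2 ratios of the 11 were 0.70 in GFP high and 0.86 in GFP low. Myo7a, the myosin of the hair bundle, had 4.64 CPM in GFP high gated cells against 210 CPM in hair cells, and 7.37 against 188 CPM in GFP low. Atoh1 was at 74.0 CPM in the gated cells against 166 CPM in hair cells of GFP high, and at 26.8 against 34.7 CPM in GFP low. Egfp, the reporter transcript, was instead higher in the gated cells: 6056 CPM (5995 to 6119) against 4733 CPM in hair cells of GFP high, and 2033 CPM (2007 to 2059) against 1177 CPM in GFP low. At day 16 the order of Egfp was the opposite, 4314 CPM in 20 gated cells against 5182 CPM in hair cells, and at day 20 it was 7092 against 5459 CPM.

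Secreted matrix genes stood far above hair cells, with 7 of 7 assessed genes of the acellular membranes and otoliths higher and median log2 ratios of 4.91 in GFP high and 4.81 in GFP low. Otol1, an otoconial scaffold protein, had 1551 CPM in gated cells against 32.5 CPM in hair cells of GFP high and 1237 against 15.1 CPM in GFP low. Otoa, otoancorin, which fixes the acellular gels to the supporting cell surface, had 242 against 7.07 CPM and 189 against 8.01 CPM. Both were higher still in nonsensory cells, Otol1 at 2442 CPM in GFP high and 2053 CPM in GFP low and Otoa at 439 and 378 CPM. Among endoplasmic reticulum folding genes 8 of 19 were higher than in hair cells and none lower. Agr2, the close relative of Agr3, had 30.6 CPM in GFP high and 25.5 CPM in GFP low gated cells, against 0.597 and 0.177 CPM in hair cells and 10.3 and 9.44 CPM in nonsensory cells. In BMP signalling 8 of 12 were higher, and Id1, a target of the pathway, had 625 against 24.5 CPM in GFP high and 480 against 10.0 CPM in GFP low; Bmp2 was the one lower gene. Of the Hippo genes 9 of 10 were higher, with none lower. Against nonsensory cells, by the same rule, 0 of 12 BMP genes and 0 of 11 Hippo genes were higher. Of all 9278 genes assessed there only 2.45% were higher and 3.34% lower, so counts of 0 lie near that share. Of 19 folding genes only Agr2 was higher there, and none of the folding, BMP or Hippo genes was lower.

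Immediate early genes also separated gated cells from hair cells, with 12 of 15 higher and none lower. Fos stood at 2598 CPM in gated cells against 136 CPM in hair cells of GFP high, and at 2538 against 135 CPM in GFP low. The nonsensory otic cells of the same libraries were like the gated cells in this, with 2854 CPM of Fos in GFP high and 3088 CPM in GFP low. Against nonsensory cells 2.45% of all genes were higher and 3.34% lower by the same rule, and 0 of the 15 immediate early genes were either. These genes respond to cell dissociation as well as to growth signals, and the part of dissociation was not tested. All 8 motile cilium genes assessed were lower in the gated cells than in hair cells, among them Foxj1, the master regulator of motile cilia, at 27.5 against 199 CPM in GFP high and 15.6 against 152 CPM in GFP low.

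Ranked by the smaller of the 2 library ratios over hair cells, the leaders besides genes of the gate were Tectb, Bricd5, Gjb6, Mpzl2, Tm4sf1, Col9a1, Col9a3 and Tril. Col9a1, a collagen of the tectorial membrane, was 63.0-fold higher in GFP high (946 against 15.02 CPM) and 100.8-fold higher in GFP low (849 against 8.42 CPM). Mpzl2, an adhesion protein whose loss causes deafness, was 81.9-fold and 76.3-fold higher. Bricd5 was 87.4-fold and 86.0-fold higher.

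The nonsensory otic cells (Cnmd and Oc90 at 3 or more UMIs, Otof under 100 CPM) share the otic epithelium with the gated cells, and the limit on Cnmd and Oc90 separates them by rule, so that again the counts are a description. Many of the nonsensory cells differ from the gate by this limit alone. Of 208 such cells in GFP high 125 met every other limit of the gate, and of 249 in GFP low 130 did. Of 9278 genes assessed, 2.45% were higher and 3.34% lower in the gated cells in both libraries. Among the Notch genes 9 of 19 were higher in the gated cells and none lower: Jag1, Jag2, Lfng, Mfng, Hes5, Hey1, Heyl, Nrarp and Dlk2. Their list medians were 1.11 in GFP high and 1.12 in GFP low on the log2 scale, beside 0.06 and 0.01 over all genes. Jag1, the Notch ligand that prosensory and supporting cells keep, had 168 CPM in gated cells against 52.9 CPM in nonsensory cells of GFP high, and 180 against 47.4 CPM in GFP low. Hes5, the Notch target, had 117 against 28.6 CPM in GFP high and 71.0 against 5.15 CPM in GFP low. Lfng, the fringe enzyme that modifies Notch, had 199 against 63.6 CPM in GFP high and 141 against 38.9 CPM in GFP low. The ratio of Hes5 differed widely between the libraries, 4.10 in GFP high and 13.8 in GFP low, and 74.0% and 52.0% of the Hes5 UMIs of gated cells came from 10 cells in the same libraries.

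Of the FGF genes 7 of 14 were higher and 2 lower, with list medians of 1.03 in GFP high and 0.78 in GFP low. Fgf20, a ligand needed for the differentiation of outer hair cells and supporting cells, had 44.9 CPM against 6.90 CPM in GFP high and 27.9 against 2.67 CPM in GFP low. Fgf10, a ligand of the prosensory domain, had 63.9 against 15.2 CPM in GFP high and 45.4 against 10.0 CPM in GFP low, and Fgf3, a ligand of early otic development, 64.1 against 26.0 and 32.6 against 15.8 CPM. The 2 lower genes were Fgf9 and Fgfr2, a ligand and a receptor of nonsensory otic epithelium. Lgr5, an R-spondin receptor that marks supporting cells with progenitor ability, had 39.7 against 2.83 CPM in GFP high and 30.1 against 3.34 CPM in GFP low.

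By the same ranking the genes that stood highest over nonsensory cells were Tectb, Igfbp3, Tmem173, Isl1, Gad1, Prdx6, Phox2a, Hes5, Hopx and Nrcam. Isl1, a transcription factor of the prosensory region, was 5.13-fold higher in GFP high (156 against 30.4 CPM) and 7.02-fold in GFP low (183 against 26.0 CPM). Igfbp3, an insulin-like growth factor binding protein, was 12.4-fold and 10.8-fold higher. In the other direction stood Scg2, Itih5, Cited1, Matn1, Sbspon, Ecrg4, Sod3, Dclk1, Lcn2 and Lmx1a. Lmx1a, a transcription factor that specifies nonsensory epithelium, had 7.12 CPM in gated cells against 57.7 CPM in nonsensory cells of GFP high, and 8.48 against 65.0 CPM in GFP low. Ecrg4 had 243 against 2958 CPM in GFP high and 220 against 2129 CPM in GFP low. Tecta, alpha-tectorin, was also lower in the gated cells, 121 against 343 CPM in GFP high and 87.6 against 283 CPM in GFP low, so the 2 tectorins lay on opposite sides.

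A further 170 cells met the gate but for Otof at 100 CPM or more, 132 of them in GFP high and 34 in GFP low. They were deeper than the gated cells, with medians of 50785 and 35192.5 UMIs in GFP high and GFP low against 23255 and 19548 UMIs, and a doublet caller's highest scores took 24 and 15 of them, against 2 and 24 of the 209 and 490 gated cells. The gated cells had more of Tm4sf1 (4.61-fold in GFP high and 3.82-fold in GFP low), Ccn2, Hes5, Sparcl1, Fibin, Mt3, Nr2f1, Hes1, Prdx6 and Wls than these. Hes1, a repressor downstream of Notch, had 307 CPM in gated cells against 115 CPM in GFP high and 200 against 75.4 CPM in GFP low. Against all remaining cells the leaders outside the rule were Tnfaip2, Adgrg6, Gjb6, Gm266, Tectb, Marveld3, Heyl, Rlbp1 and Samd9l, and Heyl, a Hey-family Notch target, was 7.57-fold higher in GFP high and 10.6-fold in GFP low.

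Between the 2 sorts of day 21, few genes of the gated cells differed by much. Of 9444 genes assessed (10 CPM in either library and 30 UMIs over both), 68 were at least 2-fold higher in GFP high with the interval clear of 1, or 0.72%, and 154 were at most 0.5 of the GFP low level, or 1.63%. Over all assessed genes the log2 ratio had a median of 0.01. The sort bears on the reporter itself: Egfp had 6056 CPM in GFP high against 2033 CPM in GFP low, a ratio of 2.98 (2.93 to 3.03), and Atoh1 had 74.0 against 26.8 CPM, a ratio of 2.76 (2.38 to 3.20). For Atoh1 this call was lost in gated cells without an Otof UMI, where the log2 ratio was 0.998, and the log2 ratio was -0.34 in the 17 GFP high and 28 GFP low gated cells without any UMI of the neuron and epidermis markers described below. Single cells overlapped widely, with a median of 4552 CPM of Egfp in GFP high cells (quartiles 2120 and 9357) and 1131 CPM in GFP low cells (365 and 2938).

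No general supporting cell gene passed the 2-fold rule between the 2 sorts. All 14 assessed were neither higher nor lower, with a list median log2 ratio of 0.31 and ratios of 0.823 to 1.65. The same held for 13 of 13 tight junction genes, 12 of 12 genes of ion and glutamate handling, 14 of 14 Wnt genes, 10 of 10 Hippo genes, 14 of 14 otic transcription factors and 19 of 19 genes of protein folding in the endoplasmic reticulum, the compartment where Agr3 works. Of all 9444 genes assessed 9222 were neither, so lists of this size without a call lie near the share over all genes. Of the given markers only Tectb was called, at 348 CPM in GFP high and 93.0 CPM in GFP low, a ratio of 3.74 (3.48 to 4.03), and Gjb6 was 1.70-fold higher (1.59 to 1.83). The 10 richest cells held 74.99% of the Tectb UMIs in GFP high and 64.6% in GFP low. In the 17 GFP high and 28 GFP low cells without any neuron or epidermis marker UMI the Tectb log2 ratio was -2.56, against 1.90 in all gated cells, and the list median of the general supporting cell genes changed sign there too. Agr3 was at 538 and 540 CPM. A gene that misses the 2-fold rule may still differ by less.

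**Figure D3:**
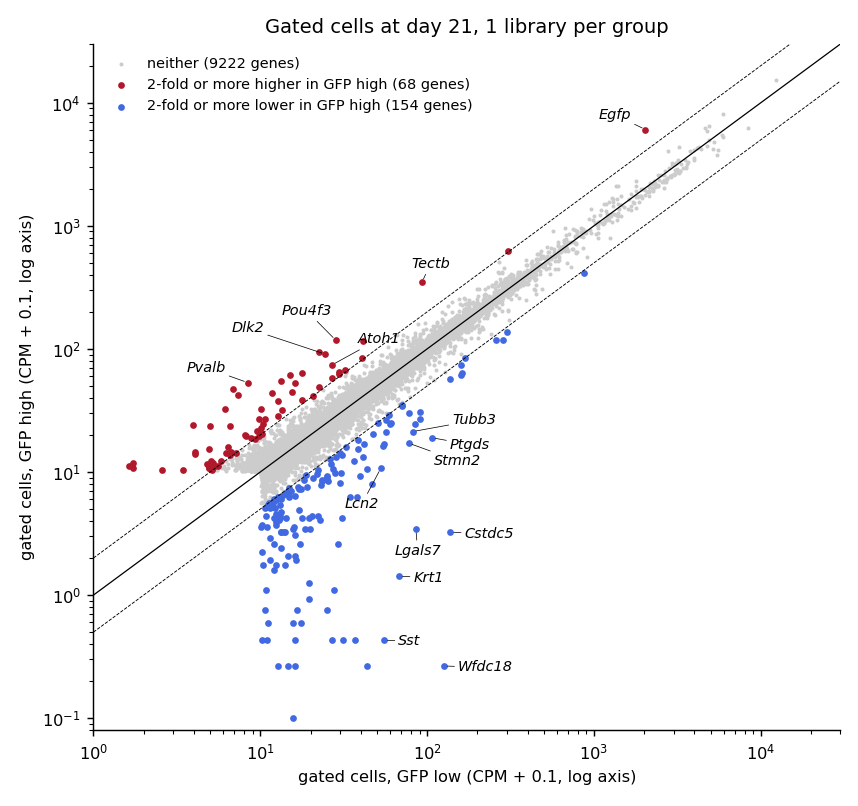
CPM plus 0.1 summed over gated cells of GFP high (vertical) and GFP low (horizontal), both on log axes, for 9444 genes in 1 library each; the solid line marks equal levels and the dashed lines 2-fold. Red genes (68) are higher and blue genes (154) lower in GFP high; Egfp, Tectb, Pou4f3 and Pvalb lie above the band and Wfdc18, Sst, Krt1 and Cstdc5 far below it.

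The genes highest in GFP high were Pvalb, Rasd2, Pou4f3, Rbm24, Miat, Tectb, Dlk2, Grp, Eya2 and Egfp, and 6 of 15 hair cell genes assessed were higher, 2 lower and 7 neither. Pou4f3, the transcription factor that keeps hair cells alive, had 118 CPM in GFP high against 28.2 CPM in GFP low, a ratio of 4.18 (3.66 to 4.78). Pvalb, a calcium buffer of hair cells, had 53.1 against 8.31 CPM, and Lhx3, a LIM homeobox gene of hair cells, 46.9 against 6.77 CPM. Of these UMIs a large share lay in few cells: the 10 richest cells held 61.7% of the Pou4f3 UMIs in GFP high and 51.7% in GFP low, and 91.0% and 88.7% of the Pvalb UMIs. Without gated cells over 2 times the median UMIs, the log2 ratio of Pvalb was 0.80 and that of Grp 0.39, and neither was called. The hair cell list sums moved with this result in the other cells too, 12042 CPM in GFP high and 9224 CPM in GFP low for hair cells and 748 and 545 CPM for nonsensory cells, beside 1343 and 1054 CPM for gated cells; the part of RNA from hair cells in the gate was not tested.

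Notch genes held 3 of the higher calls, Dll1, Dlk1 and Dlk2, and the other 17 of 20 were neither, with a list median log2 ratio of 0.19. Dlk2, a noncanonical Notch ligand, had 90.6 CPM in GFP high against 24.4 CPM in GFP low, and it was also higher in hair cells (373 against 149 CPM) and in nonsensory cells (40.5 against 9.25 CPM). Dll1, the ligand shown by new hair cells, had 12.1 against 5.74 CPM. Dlk1 had 49.3 against 22.5 CPM with all of its GFP high UMIs in 10 cells, and its log2 ratio turned to -0.35 in gated cells without an Otof UMI. Hes5 had 117 against 71.0 CPM, Hes1 307 against 200 CPM and Lfng 199 against 141 CPM, ratios of 1.65, 1.54 and 1.41 that stayed under 2. Single genes of other lists were Fgf8, a hair cell ligand, at 14.6 against 3.94 CPM, Krt7 at 43.4 against 11.7 CPM, Tekt1 of the cilium at 27.0 against 9.68 CPM and Fabp7 of glia at 42.2 against 7.28 CPM, of which 10 cells held 97.6% in GFP high.

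The lowest ratios belonged to Wfdc18, Sst, Krt1, Cstdc5, Lgals7, Ptgds, Lcn2, Stmn2, Tubb3 and Krtdap, genes of skin, secretory epithelium and neurons. Wfdc18 had 1 UMI in GFP high against 1464 in GFP low (0.166 against 125 CPM, a ratio of 0.00132, 3.3e-05 to 0.00737), and 10 cells held 99.3% of the GFP low UMIs. For Sst, Krt1, Cstdc5 and Lgals7 the 10 richest GFP low cells held 98.9%, 98.9%, 98.8% and 95.1%. Without gated cells over 2 times the median UMIs, Krt1 (log2 ratio -0.033), Tubb3 (-0.65) and Krtdap (-0.18) were no longer called lower. Wfdc18 and Sst were not called there either, although their log2 ratios were still -4.65 and -1.49. Of the 154 lower genes, 109 had at least 50% of their GFP low UMIs in 10 cells. Of the 68 higher genes, 42 had at least 50% of their GFP high UMIs in 10 cells. The same share was not counted over all 9444 genes assessed, so these counts do not set the called genes apart.

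All 7 epidermis markers assessed and 9 of 11 neuron markers were lower in GFP high, with median log2 ratios of -2.31 and -1.90. The 12 neuron markers summed to 178 CPM in GFP high and 506 CPM in GFP low gated cells, and all 12 had UMIs in both. The 8 epidermis markers summed to 71.9 and 359 CPM, and Krt15 was at 0 in GFP high. Tubb3, a tubulin of neurons, had 21.2 CPM in GFP high against 81.6 CPM in GFP low in gated cells, and 3.47% against 16.8% of cells with a UMI at equal depth. The same gene had 2.86% against 12.2% in hair cells and 1.93% against 15.4% in nonsensory cells, so shares of like size were found in the other cells of each library; median depths were 30280 and 25288 UMIs in hair cells and 31079 and 31404 UMIs in nonsensory cells. Krt1, a keratin of the upper epidermis, owed 771 of its 791 UMIs in GFP low to 1 cell. Markers of pluripotent cells, muscle, endothelium and blood summed to 2.65, 7.95, 0.662 and 0.166 CPM in GFP high and 8.65, 14.7, 2.14 and 0.257 CPM in GFP low, with Ptprc, C1qa and Hbb-bs of blood at 0 in both and Cdh5, Emcn and Kdr of endothelium at 0 in GFP high. The part of neuron and epidermis RNA in the 154 lower genes was not tested; without gated cells that held 3 UMIs of such a marker, 122 genes were higher and 101 lower, of which 50 and 32 were among the 68 and 154. Wfdc18 (log2 ratio -3.15), Sst (-2.23), Krt1 (-0.64), Lgals7 (-0.58) and Krtdap (-0.69) were not called there, and Cstdc5 had a log2 ratio of 0.93. That exclusion, added after the values had been seen, left 127 of 209 and 330 of 490 cells.

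**Figure D4:**
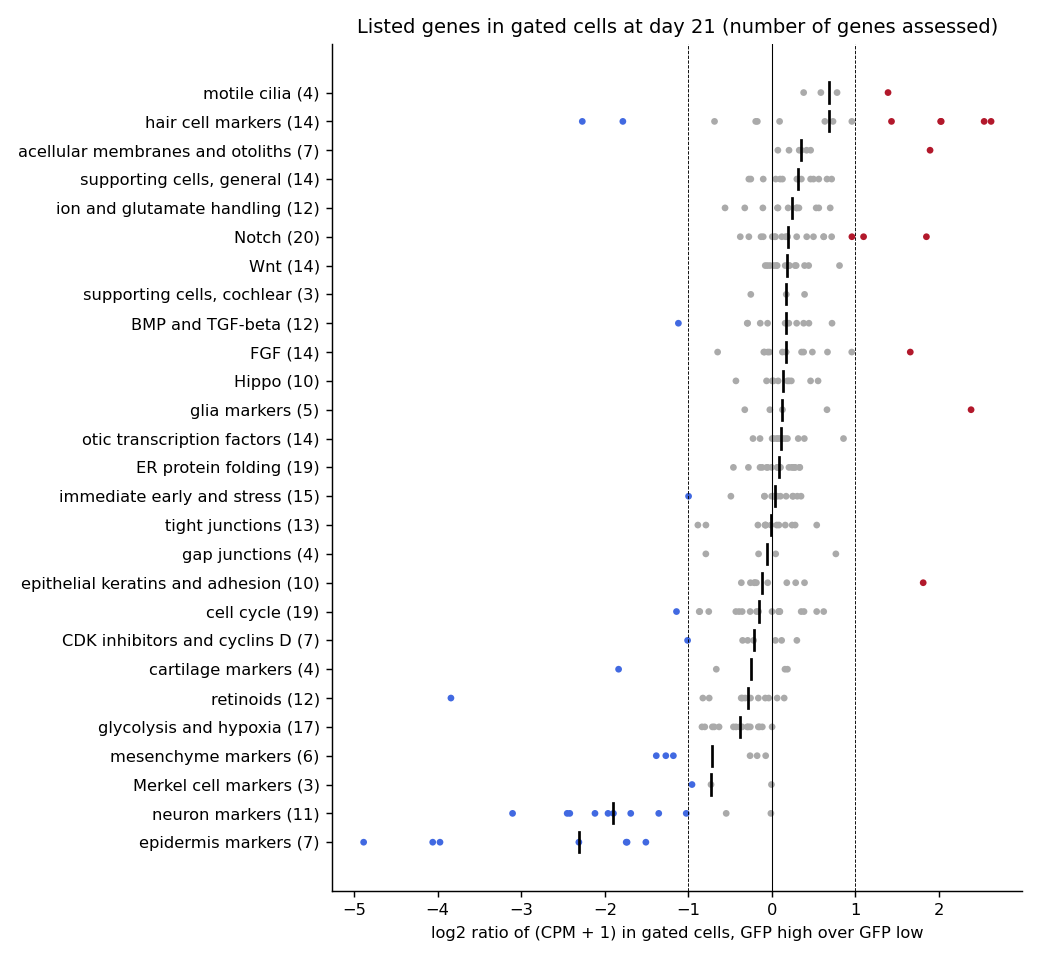
Log2 ratio of (CPM + 1) in gated cells, GFP high over GFP low, for each gene assessed in 27 lists (points; red higher, blue lower, grey neither) with the list median (black bar) and the number of genes in the median; dashed lines mark 2-fold and genes of the gate are left out. Neuron and epidermis markers lie to the left with medians of -1.90 and -2.31, hair cell markers reach farthest right, and most other lists centre near 0.

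No gene of glycolysis and the hypoxia response passed the 2-fold rule, which 9222 of all 9444 genes assessed did not pass either. Of 17 assessed, 16 had ratios under 1 (47.8% of all genes did), with a range of 0.558 to 1.001 and a median log2 ratio of -0.38. Ero1l, an oxidase of the endoplasmic reticulum that hypoxia raises, had 173 CPM in GFP high against 310 CPM in GFP low, and Vegfa, the vascular growth factor, 278 against 450 CPM. Gapdh had 6213 against 8366 CPM. Nonsensory cells had ratios under 1 for 16 of the 17 genes (5605 of all 9444 genes did there), with a list median of -0.13, and hair cells for 14 of the 17 (4796 of all). Among the retinoid genes 10 of 12 had ratios under 1, and Crabp1, a retinoic acid binding protein, was called at 0.993 CPM in GFP high against 27.6 CPM in GFP low, with 93.8% of the GFP low UMIs in 10 cells. Bmp2 (13.6 against 30.7 CPM), Ccnd2, a cyclin of proliferating progenitors (34.4 against 70.3 CPM), and Ier3 (83.9 against 169 CPM) were the other single lower genes of the signalling, cell cycle regulator and immediate early lists, and Mcm5 of the replication helicase stood at 4.30 against 10.7 CPM.

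Tectb divided the gated cells. Cells with 3 or more Tectb UMIs numbered 32 of 209 in GFP high, or 15.3% (10.7 to 20.9%), and 37 of 490 in GFP low, or 7.55% (5.37 to 10.3%), and they held 99.3% and 97.8% of all Tectb UMIs of the gate. The richest cell had 456 UMIs in GFP high and 126 in GFP low, while 167 and 434 cells had none. Median depths were 20389.5 UMIs in positive and 23289 UMIs in negative cells of GFP high, and 20724 and 19165 in GFP low. Summed levels give deep cells more weight. Positive cells of GFP high included cells of 110667, 101098, 92029, 80881, 78838 and 67616 UMIs, and the deepest negative cell there had 84498 UMIs. How far the ratios between positive and negative cells rest on such cells was not tested. Among hair cells 6 of 2166 in GFP high and 1 of 665 in GFP low reached 3 UMIs, and among nonsensory cells 0 of 208 and 2 of 249. Such cells were not confined to the gate: among the cells that met the gate but for Otof there were 7 of 132 in GFP high and 1 of 34 in GFP low (up to 68 and 70 UMIs), among all remaining cells 7 of 829 and 19 of 2385 (up to 80 and 212 UMIs), and at day 16 there were 3 of 3292 remaining cells (up to 264 UMIs). These cells are set against cells with no Tectb UMI, without the 10 and 19 cells of 1 or 2 UMIs, a split chosen after the values had been seen.

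Tectb-positive cells of both libraries had more of Cdc20, Pou3f2, Sfrp2, Pantr1, Isl1, Pcp4, Sparcl1, Dlk1, Upp1, Rabgap1l and H2afx. Isl1 had 362 CPM in positive against 102 CPM in negative cells of GFP high and 445 against 154 CPM in GFP low, 3.56-fold and 2.89-fold. Sfrp2, a secreted Wnt modulator, was 2.97-fold and 4.43-fold higher, and Pou3f2, a POU transcription factor best known in neurons, 3.20-fold and 4.96-fold. Hes5 was 1.94-fold (1.64 to 2.29) and 1.81-fold (1.46 to 2.23) higher, and Sox2 1.16-fold and 1.36-fold. These are ratios of summed UMIs, and most Hes5 UMIs of gated cells came from 10 cells, as given above. All Dlk1 UMIs of GFP high came from 10 cells too. Over single cells at equal depth the rank correlation of Tectb and Hes5 was only 0.14 in GFP high and 0.10 in GFP low. The genes lower in positive cells were Oc90, Igf1, Tmem132c, Cthrc1, Rnase1, Bricd5, Aldh1a3, Gpc3, Ifi27, Cebpd, Mmp2 and Tmem176a. Aldh1a3, an enzyme that makes retinoic acid, had 105 against 287 CPM in GFP high and 94.2 against 262 CPM in GFP low, or 0.364 and 0.360 of the level in negative cells. Oc90, the main otoconial protein, was at 0.113 and 0.0497 of that level, although it is a gene of the rule. Otogl, the sister gene of Otog, was at 0.462 and 0.489. Gjb6, Slitrk6 and Tnfaip2 differed by less than 2-fold either way.

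**Figure D5:**
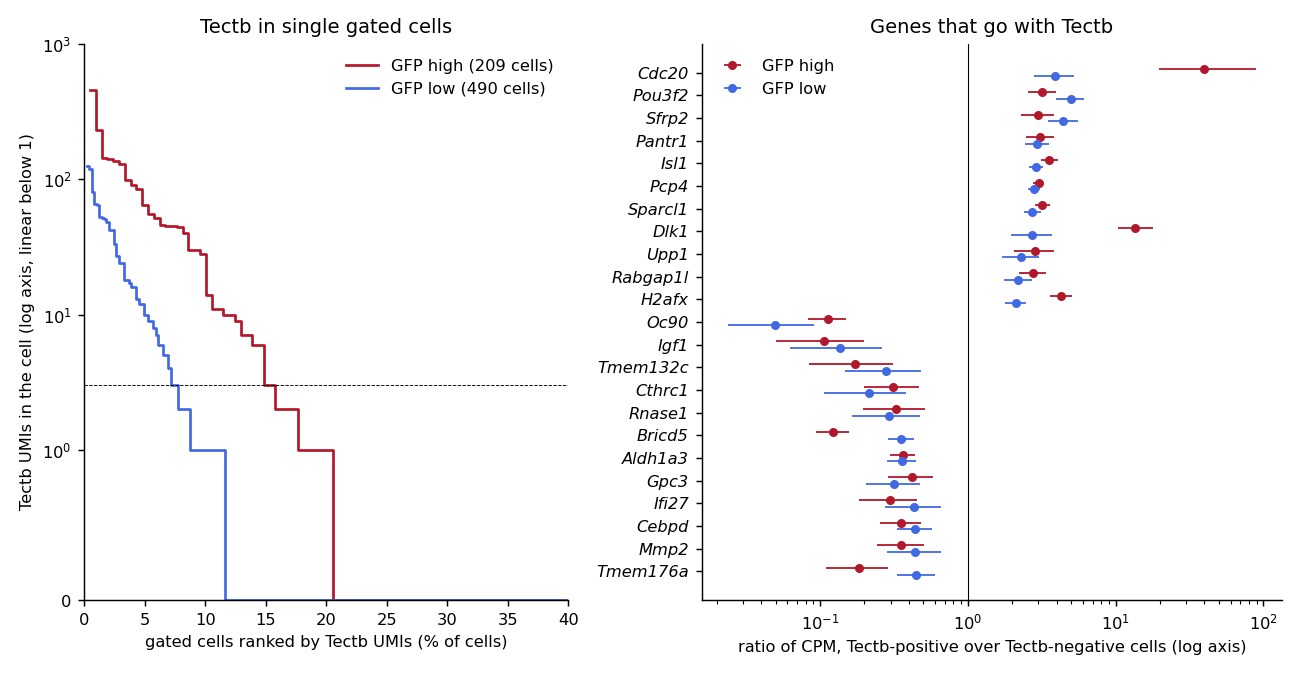
Left, Tectb UMIs per gated cell (log axis, linear below 1), cells ranked from highest as a percentage of the gated cells of GFP high (red, 209 cells) and GFP low (blue, 490 cells); the dashed line marks 3 UMIs. Right, CPM ratio of Tectb-positive over Tectb-negative gated cells with exact 95% intervals (log axis) for the genes that led in both libraries; Isl1, Sfrp2 and Pou3f2 lie right of 1 and Oc90 and Aldh1a3 left of it in both.

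The 2 arms of the rule brought in different cells. In GFP high 179 cells passed by both genes, 24 by Otog alone and 6 by Slitrk6 alone, and in GFP low these were 393, 57 and 40. Cells that passed by Slitrk6 alone were shallower, with medians of 15639 UMIs in GFP high and 12803 in GFP low against 22092.5 and 20095 UMIs for Otog alone. They had more of Nrcam, Tent5a, Cadps2 and Trpc1, and less of Ecrg4, Tecta, Mt3 and Sostdc1. Ecrg4 had 26.6 CPM in Slitrk6-only cells against 858 CPM in Otog-only cells of GFP high, and 27.0 against 405 CPM in GFP low. Tecta had 13.3 against 266 CPM and 9.65 against 142 CPM. Both of these genes were also high in the nonsensory cells, so the Otog-only cells were nearer to those in these genes. With 6 cells in GFP high, these ratios rest on few cells.

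Genes outside the rule that varied most among gated cells at equal depth were headed by Ccer2, Malat1, Egfp, Ecrg4, Cryab and Mia, by the ratio of variance to mean over 202 GFP high and 435 GFP low cells; this ranking was added after the values had been seen. Ccer2 had a ratio of 242 in GFP high and 300 in GFP low, where the median gene had 1.12 and 1.13. Its level was 3971 CPM (day 16), 6169 CPM (day 20), 497 CPM (GFP high) and 499 CPM (GFP low), but 1 cell held 2046, 1035, 1224 and 2701 UMIs of it in the same order, and 92.2% of the GFP high and 96.7% of the GFP low UMIs came from 10 cells. Ecrg4 and Mia, secreted proteins, varied together over cells, with rank correlations of 0.54 in GFP high and 0.41 in GFP low. Igfbp2 and Bsg were more closely linked, at 0.77 and 0.78, as were Bsg and Gapdh at 0.63 and 0.53. Prdx6, a peroxiredoxin, and Cnmd ran against each other at -0.35 and -0.36. The cells of each value share 1 library, and these are descriptions over cells.

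Few gated cells of day 21 had transcripts of dividing cells. At 10000 UMIs, 3.96% of GFP high gated cells (8 of 202, 1.73 to 7.65%) and 6.90% of GFP low gated cells (30 of 435, 4.70 to 9.70%) had a UMI of Mki67 or Top2a, genes of dividing cells, and without thinning 8.61% and 10.8% did. Hair cells, which do not divide, had 2.11% (1.54 to 2.81%) and 2.73% (1.60 to 4.33%), and nonsensory cells 5.80% and 7.69%. All remaining cells had 6.05% in GFP high and 10.5% in GFP low. The interval of the GFP high gated cells overlaps that of the hair cells, so a share above that background is not shown there. In GFP low the interval of the gated cells begins at 4.70%, just above the 4.33% where that of the hair cells ends. These intervals count cells of 1 library each, and the difference between the kinds of cells was not tested. At day 16 the share was 21.1% of gated cells (4 of 19, 6.05 to 45.6%; 40% before thinning), with 6 of 150 hair cells and 36.8% of nonsensory cells, and at day 20 it was 11.1% (1 of 9, 0.281 to 48.2%; 8.33% before thinning). The cell cycle genes summed to 1065 CPM (day 16), 82.3 CPM (day 20), 438 CPM (GFP high) and 432 CPM (GFP low) in the gated cells. The Mki67 UMIs of GFP high all came from 6 cells, and 10 cells held 85.7% of those of GFP low. Cdkn1b, the CDK inhibitor p27Kip1 that marks postmitotic supporting cells, had 144 CPM in GFP high and 117 CPM in GFP low gated cells against 50.8 and 37.6 CPM in hair cells.

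At day 16 and day 20 the 20 and 12 gated cells allow levels only. Jag1 had 175 CPM in gated cells of day 16 against 7.05 CPM in hair cells, and 99.97 against 14.5 CPM at day 20. Hes5 had 74.8 and 47.0 CPM against 4.08 and 6.42 CPM, but at day 20 all 8 Hes5 UMIs came from 1 cell. Isl1 stood at 363 CPM at day 16 and 147 CPM at day 20, beside 156 CPM for GFP high cells and 183 CPM for GFP low cells. Prdx6 stood at 1157, 4211, 1756 and 1454 CPM over the 4 libraries, so that day 20 was the highest. Cells that passed by both Slitrk6 and Otog were 16 of 20 at day 16 and 4 of 12 at day 20, where depth was lowest. With 1 library a day, the day cannot be told apart from the library.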

How the data were processed

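The values are UMI counts per gene and barcode, deposited by the authors as filtered matrices of 4 libraries and 32289 genes; per the file headers they come from Cell Ranger 6.1.2, while mm10, Seurat 4.0.6 and Cell Ranger 6.1.0 are named per the submitters' processing notes. Counts were not normalized. UMIs were summed per cell class and library and divided by the class total (CPM). Ratios between sums carry exact conditional binomial intervals, levels exact Poisson intervals and shares Clopper-Pearson intervals, all at 95%. A gene was assessed at 10 CPM in either sum and 30 UMIs over both, and called at a ratio of 2 or 0.5 with its interval clear of 1; no replicate test is possible. The genes named are the given markers, the 10 highest and 10 lowest ratios at 50 CPM or more, up to 4 members of each of 34 lists at 20 CPM, the 10 leading genes against each kind of cells, and 5 genes each way between the arms, with mitochondrial and ribosomal protein genes left out; a few other members of lists are named with their values. Cell classes are rebuilt from the gates given in the report. Doublets were kept; Scrublet (scanpy 1.11.5) was run with removal of the highest scores at 0.8% per 1000 barcodes as an alternative, because its own threshold marked few cells. The members and gene lists were chosen with earlier results of these data known. Gene positions are of GRCm38. The summing and interval steps were tested on simulated data. Python 3.11.15, numpy 2.4.6, pandas 2.3.3, scipy 1.17.1, matplotlib 3.10.9 and, for TMM factors, edgeR 4.0.16 in R 4.3.3 were used.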

Additional observations from a re-analysis of the deposited data

Results flagged for a closer look

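For 4 genes the ratio of GFP high over GFP low lay on one side of 1 in gated cells and on the other in nonsensory otic cells; with 1 library per group the difference between the classes was not tested. Tectb had a ratio of 3.74 in gated cells and 0.198 (0.0902 to 0.389) in nonsensory cells, where the levels were 1.13 CPM in GFP high and 5.72 CPM in GFP low. These nonsensory levels rest on 10 and 60 UMIs, and 1 cell held 54 of the 60; without that cell, an exclusion added after seeing the data, the nonsensory ratio was 1.96 (0.645 to 6.56), on the same side of 1 as in gated cells. Dlk1 had 2.19 in gated cells and 0.276 (0.226 to 0.335) in nonsensory cells. Krt1 had 0.0195 in gated cells and 4.79 (3.14 to 7.52) in nonsensory cells. Cstdc5 had 0.0229 in gated cells and 2.02 (1.84 to 2.21) in nonsensory cells, and 98.8% of its GFP low UMIs in gated cells came from 10 cells.

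Between Tectb-positive and Tectb-negative gated cells, 2 genes lay on opposite sides of 1 in the 2 day 21 libraries, which was also not tested. Egfp had a ratio of 1.18 in GFP high and 0.911 (0.867 to 0.958) in GFP low. Tecta had 0.725 in GFP high and 1.60 (1.31 to 1.94) in GFP low.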

How the results depend on the processing

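No paired analysis was possible because each group is 1 library and the labels give no replicate numbers. The share of cells in the gate moved past its counting interval with an Agr3 minimum of 5 UMIs (0.315% at day 16, 4.99% in GFP high, 10.5% in GFP low), with a minimum of 2 UMIs (14.3% in GFP low), with at most 10% mitochondrial UMIs (14.02% in GFP low) and with gating after thinning to 10000 UMIs (4.98% in GFP high, 10.8% in GFP low). The 68 higher genes became 44 by the mean of per-cell CPM, 160 with no CPM minimum and 122 without cells that held 3 UMIs of a neuron or epidermis marker. The 154 lower genes became 74, 565 and 101 under the same settings and 64 without cells over 2 times the median UMIs; under the other settings there were 50 to 81 higher and 111 to 155 lower genes. The 111 lower genes, and 70 higher, came without cells holding any such marker UMI, which left 17 and 28 cells, and 1 and 3 of them were among the 154 and 68. Among the named genes with a call, log2 ratios that changed sign were those of Dlk1 without Otof UMIs (-0.35) and, without cells holding 3 marker UMIs, of Dlk1 (-0.88), Cstdc5 (0.93) and Bmp2 (0.29). Without cells holding any such UMI they were Tectb (-2.56), Atoh1 (-0.34), Crabp1 (0.023), Ccnd2 (1.91), Ier3 (0.15), Krt7 (-2.98) and Tekt1 (-0.98). Both marker exclusions were added after seeing the data, and the cause of these changes was not tested. Of 1086 comparisons of 111 genes over 10 settings, 1006 kept the call or stayed without one. In 41 a call was lost with its direction kept, in 28 a gene gained one, and in 11 a called gene changed sign. The direction of genes without a call was not compared, so their sign changes are not counted. Calls lost without cells over 2 times the median UMIs were those of Pvalb, Grp, Wfdc18, Sst, Krt1, Tubb3, Krtdap, Bmp2, Ccnd2, Tekt1 and Col1a2. Without cells holding any marker UMI they were those of Pou4f3, Rbm24, Miat, Dlk2, Grp, Eya2, Ptgds and Dlk1. In these 17 and 28 cells the ratios of Pou4f3 (5.76), Eya2 (2.71), Dlk1 (11.7) and Ptgds (0.369) were still past 2-fold. Those of Rbm24 (1.19), Miat (1.35), Dlk2 (1.86) and Grp (1.35) were not. Of 274 comparisons of list medians, 57 moved by over 0.2 on the log2 scale and 32 changed sign, among them 15 of 22 lists without cells holding any marker UMI (general supporting cell, Notch, Wnt, FGF and otic transcription factor lists included) and 5 of 28 without cells holding 3. Depth limits what days 16 and 20 show, with 20 and 12 gated cells, and genes under 10 CPM at day 21.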

Other observations

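Some genes of the cochlear supporting cell and Wnt lists differed between gated and nonsensory otic cells, in both directions. Prox1, a transcription factor of cochlear supporting cells, had 21.2 CPM in gated cells against 9.73 CPM in nonsensory cells of GFP high and 25.4 against 10.5 CPM in GFP low. Of 9 genes listed for cochlear supporting cells, Prox1, Lgr5 and Bace2 were higher in gated than in nonsensory cells, Npy and Epyc were lower, and the others were not assessed there. The sum of this list was lower in the gated cells, 93.7 against 117 CPM in GFP high and 96.1 against 104 CPM in GFP low. Ceacam16, a protein of the tectorial membrane, had no UMI in gated cells of either day 21 library (intervals up to 0.611 CPM in GFP high and 0.316 CPM in GFP low), and Fgfr3, a receptor of pillar and Deiters cells, had 5.63 CPM in GFP high and 8.74 CPM in GFP low. Lgr6, a relative of Lgr5, had 30.8 against 9.73 CPM in GFP high and 30.3 against 5.34 CPM in GFP low, while the Wnt inhibitor Sfrp1 had 375 against 989 CPM and 381 against 914 CPM.

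Mt1, a metallothionein, was the most abundant gene among those at most 0.5 of the GFP low level, at 413 CPM in GFP high against 876 CPM in GFP low; it was not among the genes named by rule and was chosen after its values were seen. Of 6 mesenchyme markers assessed between the 2 sorts, Col1a1, Col1a2 and Pdgfra were lower in GFP high, and 10 cells held 92.6% of the Col1a2 UMIs of GFP low. All 4 glia genes assessed were higher in gated cells than in hair cells, among them Sox10, which had 174 CPM in GFP high and 160 CPM in GFP low gated cells against 7.10 and 5.24 CPM in hair cells and 212 and 220 CPM in nonsensory cells.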
